A study of Mus musculus with 2 samples.

Results

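The 9 genes Gas5, Snhg1, Snhg3, Snhg5, Snhg6, Snhg8, Snhg12, Snhg15 and Zfas1 are snoRNA host genes of the mouse, chosen by their symbols from the 20830 and 26997 genes of the short-read tables of the 10% and 90% libraries. All 9 are in both short-read tables and in the isoform table, where they hold 121 of 68065 counted isoforms. The cells are muscle stem cells (MuSCs), the resident stem cells of skeletal muscle, from Pax7creERT2; R26-eYFP fl/fl mice on a C57BL6 background, in which tamoxifen given from 3 months of age switches on YFP in cells that express Pax7. The Pax7 promoter therefore decides which cells carry the label, and every cell of both libraries was sorted on YFP. Quiescent MuSCs came from uninjured hindlimb muscle and activated MuSCs from muscle taken 72 h after an injection of 1.2% barium chloride, which kills fibres and starts regeneration. Both were run in 1 capture, and its droplets were divided into a 10% library, read by Illumina and by nanopore, and a 90% library, read by Illumina. The number of animals is not given in the sources used here, no barcode carries a label for its origin, and there are no replicates.

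A snoRNA host gene carries small nucleolar RNAs in its introns. When the transcript is spliced, the intron is debranched and trimmed to the snoRNA, which then guides the chemical modification of ribosomal RNA as part of a ribonucleoprotein particle. Box C/D snoRNAs guide methylation of ribose and box H/ACA snoRNAs guide the change of uridine to pseudouridine. What is left of a noncoding host is the spliced exons, which are exported, often bound by ribosomes and commonly degraded by nonsense-mediated decay. Gas5 owes its name, growth arrest-specific, to the rise of its transcript in cells that stop growing. Several hosts, Gas5 among them, begin with a run of pyrimidines, as do the messenger RNAs of ribosomal proteins, whose translation follows growth signals.

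In the reference annotation (Gencode vM21, build mm10) the 9 genes held 31 separate snoRNA loci on their own strand, and all 31 lay in an intron of at least 1 reference transcript. Gas5 (chr1:161034422-161038539) held 9 of them, among them Snord47, Snord78 and Snord80, and Snhg1 (chr19:8723475-8726443) held 8, among them Snord22. Snhg5 (chr9:88521050-88522929) carries Snord50a and Snord50b, Snhg6 (chr1:9941959-9944118) carries Snord87, and Zfas1 (chr2:167062934-167065862) holds 3 loci, among them Snord12. These 5 genes host box C/D snoRNAs by the names given, although several entries have only a provisional name. Snhg3 (chr4:132348014-132353686) carries Snora73a and Snora73b, Snhg8 (chr3:123507552-123508404) carries Snora24, and Snhg15 (chr11:6525591-6528760) carries Snora9, all of the H/ACA class. Snhg12 (chr4:132308623-132311024) holds 4 loci of both classes, Snora16a, Snora44, Snora61 and Snord99. Gas5 overlaps Zbtb37, Snhg6 overlaps Mcmdc2, Snhg3 overlaps Gm17300 and Zfas1 overlaps Znfx1, each on the opposite strand. Snhg3 also lies within the span of Rcc1 on the same strand, and Zfas1 overlaps Gm27494 on the same strand. Whether the short-read counting used strand is not given in the sources used here, so reads of these partners cannot be told apart from those of the 4 hosts.

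The first bases of the 9 transcripts are shown because the start is what several host genes are known to share. For each gene the 5′ end that held the most long-read UMIs (unique molecular identifiers, each standing for a captured RNA molecule) was taken, with the 30 bases that follow it in the Gencode transcripts (mm10). Capitals mark the first run of at least 5 pyrimidines within the first 10 bases.
Gas5: agCCTTTCggagctgtgcggcattctgagc (chr1:161035163-161035192, plus strand)
Snhg1: gTTCTTgtcggcctcatttttccttgttcg (chr19:8723475-8723504, plus strand)
Snhg3: CTCTCTaggcgtcgctctcttggtgtgctt (chr4:132353604-132353633, minus strand)
Snhg5: TTCTTTTacgacggagcctaagatattctt (chr9:88522861-88522890, minus strand)
Snhg6: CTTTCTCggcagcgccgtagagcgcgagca (chr1:9944089-9944118, minus strand)
Snhg8: CCCTCgcgcgcaggctcttgggagagcgtc (chr3:123508375-123508404, minus strand)
Snhg12: TTTCTCgcttcatccgcggtccctgtctgt (chr4:132308678-132308707, plus strand)
Snhg15: gtgagcgtcctcagctggcagccatggctg (chr11:6528717-6528746, minus strand)
Zfas1: tttcgttccggcggctcctagagcgtttgc (chr2:167063223-167063252, plus strand)

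Of the 9 starts, 7 held such a run, and Snhg15 and Zfas1 held none. Over the 7956 genes with at least 50 long-read UMIs and a readable start, 15.5% held a run by the same rule. This rule was written after the sequences had been seen. The stricter form, a C as the first base followed by 4 bases that are each C or T, was met by Snhg3, Snhg6 and Snhg8, 3 of 9, against 2.74% of the 7956 genes. At the RefSeq start sites (GRCm38.p6), which cover 8 of the 9 genes with 9 sites, 2 of 9 met the strict form and 3 of 9 met it within 1 base, against 2.51% and 6.32% of all 32851 start sites. A run of at least 5 pyrimidines was held by 5 of these 9 sites, against 16.6% of all sites. The search used the transcribed strand only, and a match is a description of letters, not a mapped cap site. The authors' isoform caller moves a transcript end that lies close to a reference end onto that end, which limits the resolution of these positions. The leading end held between 50.6% of the UMIs (Zfas1) and 97.5% (Snhg6).

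Levels were compared between shallow barcodes, with 3000 to 15000 short-read UMIs and 0 UMIs of the cycle genes Rrm2, Top2a and Cdk1, and deep barcodes, with at least 20000 UMIs. The 10% library held 157 shallow and 79 deep barcodes with median depths of 6729 and 65499 UMIs, and the 90% library held 1243 and 606 with medians of 4680 and 47106. The long reads of the 10% library added 1382498 and 4628237 UMIs. The libraries share barcodes: 634 are listed in both, among them all 269 barcodes of the 10% library with at least 3000 UMIs. The expression of 263 of these 269 was closest to that of the same barcode in the other library, with a median Pearson r of 0.933 against 0.662 for different barcodes. Values of the 90% library are therefore also given without the shared barcodes, which leaves 1000 shallow and 399 deep. Markers of quiescent MuSCs stood at a summed 520 CPM (UMIs per 1000000 UMIs of the group) in shallow and 41.8 in deep barcodes of the 10% library, and at 608 and 41.0 in the 90% library. Of 6 activation and cycle markers, 5 were at least 2-fold lower in shallow barcodes of both libraries, and Myod1 was higher, at 1069 against 213 CPM in the 90% library. The shallow rule already requires 0 UMIs of Rrm2, Top2a and Cdk1, so the low Mki67, Ccnb1, Cenpf and Pcna are not independent of it. Myog stood at 36.7 against 74.6 CPM in the 90% library and at 1.795 against 33.1 CPM in the 10% library. Of the markers of other cells, the 4 immune genes stood at a summed 150 and 2.84 CPM in shallow and deep barcodes of the 90% library and at 23.3 and 43.3 CPM in the 10% library. The 3 fibro-adipogenic genes stood at 242.5 and 27.4 CPM and at 149 and 33.1 CPM, nearly all of it Col3a1, while Pdgfra had 0 UMIs in shallow barcodes of both libraries and Ptprc had 0 in those of the 10% library. The 4 myofibre genes gave 68.4 and 39.4 CPM in the 90% library, and the 3 endothelial genes 6.04 and 3.45 CPM. An immune or fibro-adipogenic UMI was present in 71 of 157 and 558 of 1243 shallow barcodes. Col3a1 alone was in 43.3% and 42.9% of shallow barcodes, and in 51.9% and 52.5% of deep ones. The counts of members past 2-fold were repeated without the shallow barcodes that held such a UMI, with all deep barcodes kept. Since this drops barcodes of 1 group, mostly on the widespread Col3a1, it cannot tell other cells from MuSCs. In the 10% library 2 members were then higher and 1 lower, beside 13.8% and 39.8% of all genes. The long reads gave 2 and 1, beside 17.8% and 36.4%, and the 90% library 3 and 1, beside 17.1% and 34.8%.

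Against all deep barcodes, Gas5 and Snhg12 stood higher in shallow ones, Snhg8, Snhg15 and Snhg1 by less, Snhg5 and Zfas1 close to equal, Snhg6 lower and Snhg3 far lower. The order of the 9 folds was identical in the short reads of both libraries, and in the long reads it differed only in the place of Snhg1 and Snhg15. Levels are shares of a group's UMIs. A 3′ protocol counts a molecule once whatever its length, and the values carry no correction for length. Intervals are 95% and cover counting error only. With 1 capture no test was possible, since cells are not replicates. At least 2-fold higher in shallow were 2 of the 9 members in the 10% library, where 16.4% of all 10076 genes tested were, and 1 of 9 was at least 2-fold lower, where 32.3% of all genes were. In the 90% library the counts were also 2 and 1 of 9, beside 19.5% and 30.5% of 14932 genes. Without the shared barcodes they stayed at 2 and 1, beside 19.1% and 30.5% of 13829 genes. In the long reads they were 2 and 1 of 9 as well, beside 19.9% and 29.4% of 9588 genes. Counts of this size do not set the 9 genes apart from the other genes of the tables. The median fold of the 9 genes was 1.32 in the 10% library, 1.61 in the 90% library and 1.22 in the long reads, where the medians over all genes tested were 0.799, 0.831 and 0.837.

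**Figure D1:**
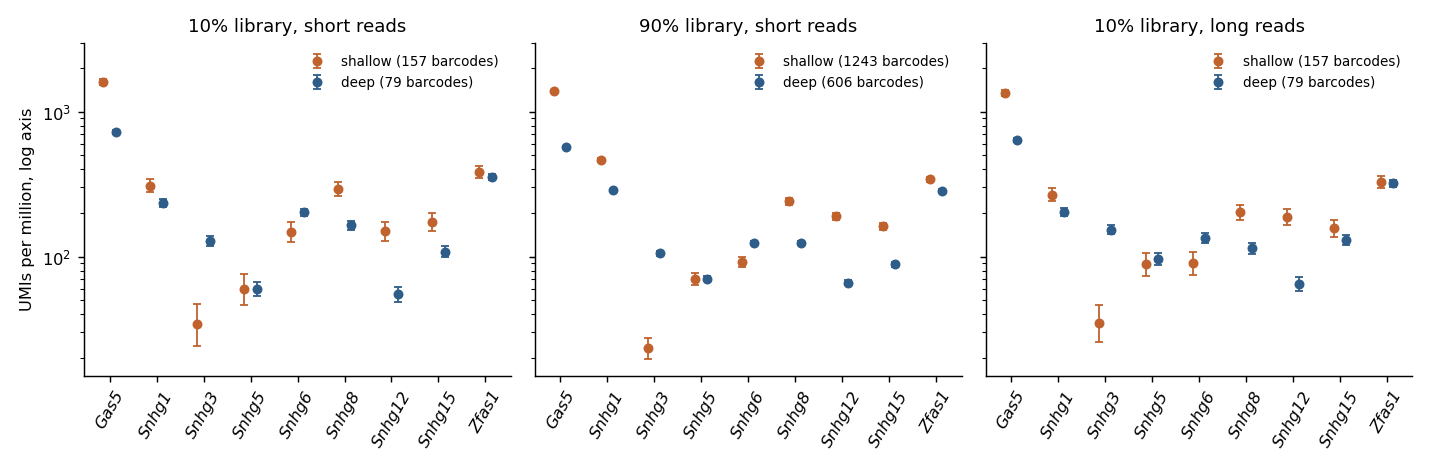
Level of each host transcript in CPM (log axis) in shallow and deep barcodes, for the short reads of both libraries and the long reads of the 10% library. Points are summed UMIs over barcodes and bars are exact 95% Poisson intervals of the counts. Gas5 is the highest of the 9 in each panel, and Snhg3 has the lowest shallow point in each.

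Gas5, host of box C/D snoRNAs, was the most abundant of the 9. In the 10% library it stood at 1600 CPM in shallow and 730 CPM in deep barcodes, and in the 90% library at 1388 and 574 CPM. The long reads gave 1342 and 637 CPM. All 3 shallow values lay above all 3 deep values, and their intervals did not overlap. The fold of shallow over deep was 2.19 (2.07 to 2.32) in the 10% library, 2.42 (2.36 to 2.48) in the 90% library and 2.11 (1.99 to 2.24) in the long reads. The 90% library gave 2.50 without the shared barcodes and 2.39 without shallow barcodes that held an immune or fibro-adipogenic marker. The fold refers to the share of UMIs. In UMIs per barcode Gas5 was higher in deep barcodes, with 28.3 against 7.21 in the 90% library and 47.1 against 11.4 in the 10% library.

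Snhg12, which hosts snoRNAs of both classes, had the highest fold of the 9 in each data set before thinning. It stood at 150 and 55.1 CPM in shallow and deep barcodes of the 10% library, at 190 and 66.2 CPM in the 90% library and at 188 and 64.6 CPM in the long reads. The shallow values were again all above the deep ones. The folds were 2.72 (2.23 to 3.31), 2.87 (2.67 to 3.08) and 2.91 (2.46 to 3.45). The last was 1.58 when each barcode was thinned to 3000 long-read UMIs. That value comes from a single random draw that leaves few Snhg12 UMIs, and it has no interval. Without the shared barcodes the fold in the 90% library was 2.83, and without shallow barcodes that held an immune or fibro-adipogenic marker it was 2.62.

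Snhg3, host of the H/ACA pair Snora73a and Snora73b, went the other way. It stood at 34.1 CPM in shallow and 128.5 CPM in deep barcodes of the 10% library. The 90% library gave 23.2 and 105 CPM, and the long reads gave 34.7 and 153 CPM. The deep level was 3.77-fold (2.72 to 5.37), 4.53-fold (3.85 to 5.38) and 4.41-fold (3.29 to 6.04) the shallow one, and 4.73-fold in the 90% library without the shared barcodes. Without shallow barcodes that held an immune or fibro-adipogenic marker the fold of shallow over deep was 0.357, 0.193 and 0.323 in the same order. The shallow levels rest on few molecules, 38 UMIs in the 10% library, 150 in the 90% library and 48 long-read UMIs. Per barcode, Snhg3 had 0.121 UMIs in shallow and 5.20 in deep barcodes of the 90% library. Snhg3 overlaps Rcc1, a chromatin-bound exchange factor for the GTPase Ran, on the same strand, and reads could have been divided between them.

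The other H/ACA hosts were higher in shallow barcodes, by less than 2-fold. Snhg8 stood at 292.5 and 164 CPM in the 10% library, 240 and 124 CPM in the 90% library and 203 and 114.5 CPM in the long reads. Its folds were 1.78 (1.56 to 2.03), 1.94 (1.83 to 2.06) and 1.77 (1.53 to 2.06), and 2.02 in the 90% library without shallow barcodes that held an immune or fibro-adipogenic marker. Snhg15 stood at 173 and 108 CPM, 162 and 88.2 CPM, and 158 and 130 CPM in the same order. Its folds were 1.60 (1.35 to 1.89) and 1.83 (1.71 to 1.97) in short reads and 1.22 (1.04 to 1.42) in long reads, so the methods differed more for Snhg15 than for its neighbours.

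Among the box C/D hosts, Snhg1 was higher in shallow barcodes, with 310 and 234 CPM in the 10% library, 465 and 289 CPM in the 90% library and 267 and 204 CPM in the long reads. Its folds were 1.32 (1.17 to 1.49), 1.61 (1.54 to 1.68) and 1.31 (1.16 to 1.48). Zfas1, named for its place antisense to the start of Znfx1, stood at 387 and 355.5 CPM, 342 and 285 CPM, and 327 and 320 CPM. Its fold was 1.20 (1.15 to 1.26) in the 90% library, while the intervals of 1.09 (0.977 to 1.21) in the 10% library and 1.02 (0.916 to 1.13) in the long reads included 1. Snhg5 gave 1.00 (0.757 to 1.31), 0.993 (0.895 to 1.10) and 0.920 (0.747 to 1.13), all with intervals around 1. Its levels in shallow and deep barcodes were 70.0 and 70.5 CPM in the 90% library and 88.2 and 95.9 CPM in the long reads. Snhg6 was lower in shallow barcodes in each data set, with 148 and 202 CPM, 91.3 and 124 CPM, and 89.7 and 135 CPM. Its folds were 0.734 (0.619 to 0.866), 0.738 (0.676 to 0.805) and 0.665 (0.544 to 0.808).

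**Figure D2:**
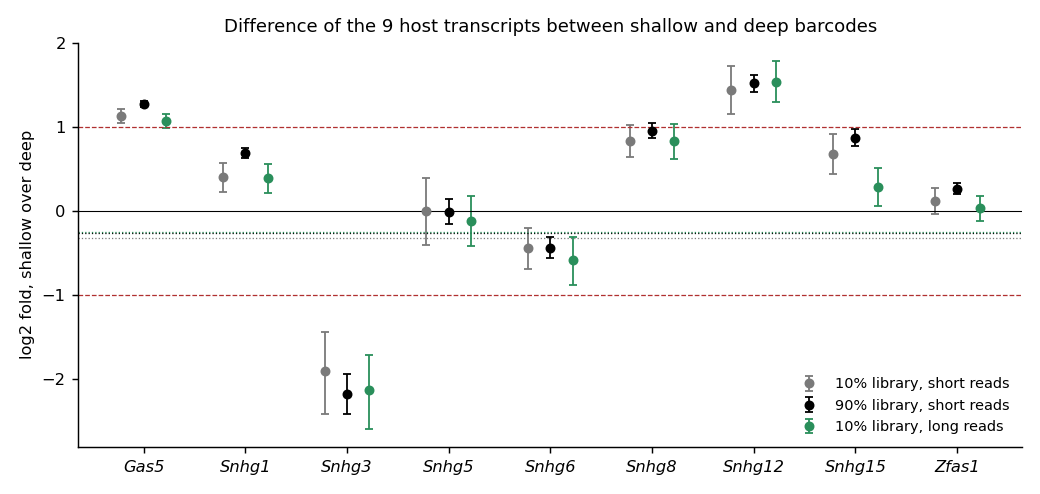
Log2 fold of shallow over deep barcodes for each host transcript, with 95% intervals for counting error. Dashed lines mark 2-fold in either direction and dotted lines the median over all genes tested in each data set. Gas5 and Snhg12 lie above the upper dashed line and Snhg3 below the lower one in all 3 data sets.

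In order of level in deep barcodes of the 90% library, Gas5 (574 CPM) came before Snhg1 (289) and Zfas1 (285), whose intervals overlapped. Snhg6 and Snhg8 followed, both at 124 CPM with 3695 UMIs each, then Snhg3 (105), Snhg15 (88.2), Snhg5 (70.5) and Snhg12 (66.2), with overlapping intervals for Snhg5 and Snhg12. In shallow barcodes the order was Gas5, Snhg1 (465), Zfas1 (342), Snhg8 (240), Snhg12 (190), Snhg15 (162), Snhg6 (91.3), Snhg5 (70.0) and Snhg3 (23.2). Snhg12 was the lowest of the 9 in deep barcodes and the fifth in shallow ones. Summed, the 9 transcripts made up 2971 CPM in shallow and 1725 CPM in deep barcodes of the 90% library, 3154 and 2037 CPM in the 10% library, and 2698 and 1854 CPM in the long reads.

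Depth sets these groups, so levels were also read in finer depth classes and after thinning. In the 90% library Gas5 stood at 1397, 1430 and 1169 CPM in shallow barcodes of 3000 to 6000, 6000 to 10000 and 10000 to 15000 UMIs. It stood at 602, 560 and 582 CPM in deep barcodes of 20000 to 40000, 40000 to 60000 and over 60000 UMIs. The 42 barcodes of 15000 to 20000 UMIs gave 730 CPM. Gas5 thus changed more between the groups than within either. Snhg3 stood at 21.5, 22.8 and 38.8 CPM in the 3 shallow classes and at 94.4, 105 and 113 CPM in the 3 deep ones. The 581 barcodes under 1000 UMIs gave 579 CPM for Gas5 and 1243 CPM for the 9 genes together, below both groups for the sum.

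Groups cut on the cycle genes gave these values. Shallow barcodes with at least 1 UMI of Rrm2, Top2a or Cdk1, 148 in the 90% library, held Gas5 at 987 CPM and Snhg3 at 68.0 CPM, both between the shallow and the deep value. In the 10% library 21 such barcodes held Gas5, Snhg3, Snhg15 and Zfas1 between the shallow and the deep value. Snhg12 (198 CPM), Snhg8 (358) and Snhg6 (230) lay above both there, and Snhg1 (166) and Snhg5 (51.1) below both. These levels rest on few UMIs, from 8 for Snhg5 to 147 for Gas5. The 35 deep barcodes of the 90% library with 0 UMIs of these genes held Gas5 at 629 CPM, Snhg12 at 51.8 CPM and Snhg3 at 74.9 CPM. Against these, 3 of 9 members were at least 2-fold higher in shallow barcodes (Gas5, Snhg12 and Snhg1), beside 23.2% of 10641 genes, and 1 was lower (Snhg3, 3.22-fold), beside 23.4%. Snhg5 moved to a fold of 1.83 in that setting, from 0.993 against all deep barcodes. The 10% library has only 9 such deep barcodes, and against them Gas5 fell short of 2-fold at 1.77, and Snhg3 at a fold of 0.504, while Zfas1 stood at 0.754 and Snhg5 at 1.05.

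**Figure D3:**
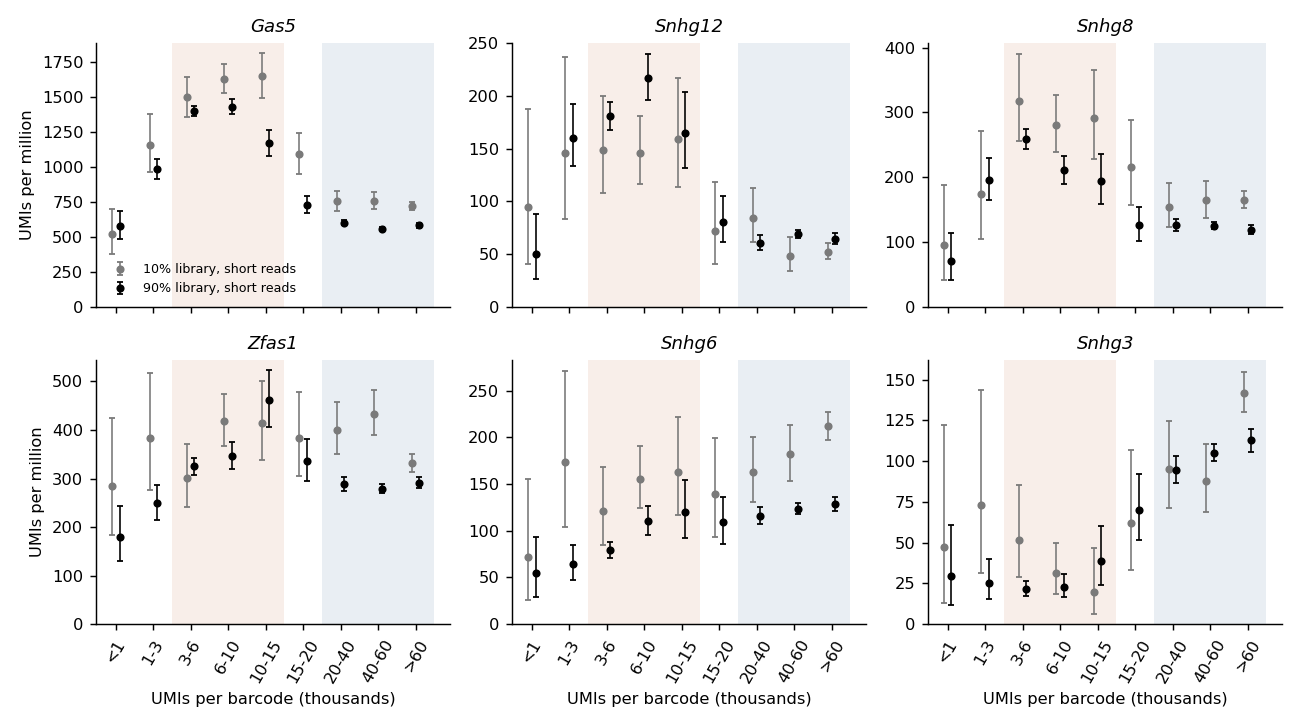
Level of 6 host transcripts in CPM by the depth of the barcode, in UMIs divided by 1000, for the short reads of both libraries. Orange and blue bands mark the shallow and the deep range, and bars are 95% Poisson intervals. Gas5, Snhg12 and Snhg8 are highest in the orange band and Snhg3 is highest over 60000 UMIs in both libraries.

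With every barcode of the 90% library thinned to 3000 UMIs, Gas5 had a UMI in 95.2% of shallow (93.8 to 96.3%) and 77.9% of deep barcodes (74.4 to 81.1%). Snhg12 had a UMI in 32.6% and 17.2%, Snhg8 in 49.6% and 31.0%, and Snhg3 in 5.63% and 23.6%. The unthinned shares of Snhg12 ran the other way, 43.8% in shallow and 78.2% in deep barcodes, since a deeper barcode has more chances of a UMI. Free RNA can give UMIs in any droplet, and no cell group of this capture is known to lack these genes, so no share can be set against a blank. Values of single barcodes spread widely, with counting error included. The middle 50% of shallow barcodes ran from 834 to 1835 CPM for Gas5, and that of deep barcodes from 398 to 702 CPM. A shallow barcode held 7.21 Gas5 UMIs on average and a deep one 28.3, so counting error widens the shallow range more. Spread beyond counting error was not tested.

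**Figure D4:**
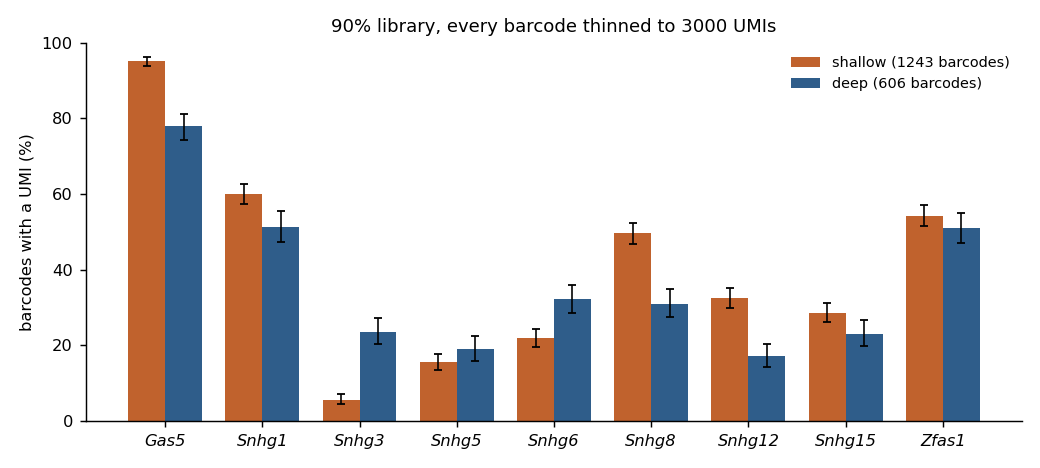
Share of barcodes of the 90% library with at least 1 UMI of each host transcript after thinning every barcode to 3000 UMIs, for 1243 shallow and 606 deep barcodes. Bars are shares and lines are exact binomial 95% intervals. Gas5, Snhg8 and Snhg12 are found in more shallow than deep barcodes, and Snhg3 and Snhg6 in fewer.

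Genes related to the hosts by function gave a mixed picture. Over all genes tested in the 90% library, 19.5% were at least 2-fold higher and 30.5% at least 2-fold lower in shallow barcodes. Among 13 other noncoding snoRNA hosts, 7 were tested in the 90% library, of which 4 were at least 2-fold higher and 2 at least 2-fold lower in shallow barcodes, with a median fold of 2.40. Rian, from an imprinted cluster that carries many box C/D snoRNAs, had the highest fold at 94.1 against 2.01 CPM (46.8-fold), followed by Snhg17 at 2.76-fold. Snhg9 and Snhg10 were lowest, at 0.307 and 0.380. In the 10% library the same list had 2 of 7 higher, 2 of 7 lower and a median of 1.26, beside 16.4% and 32.3% of all genes. In the long reads it had 2 of 7 higher, 1 of 7 lower and a median of 1.15, beside 19.9% and 29.4%. The 22 protein-coding hosts, many of them ribosomal proteins and translation factors, had a median fold of 0.802 in the 90% library, with 0 higher and 4 lower by 2-fold. Eif4a2, a translation initiation helicase, at 1.82 and Eef2, the elongation factor that moves the ribosome, at 1.39 were highest. Tcp1, a chaperonin subunit, at 0.376 and Nfs1, a cysteine desulfurase, at 0.383 were lowest.

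Proteins of the snoRNA particles did not share a direction. The shares over all genes, 19.5% higher and 30.5% lower in the 90% library, stand beside the following lists too. Of 12, 0 were at least 2-fold higher and 3 at least 2-fold lower in shallow barcodes of the 90% library, with a median of 0.926. The box C/D core proteins Nop58 (1.58) and Nop56 (1.39) were highest, and the pseudouridine synthase Dkc1 (0.376) and the nucleolar factor Tcof1 (0.352) were lowest. Of 14 factors of nonsense-mediated decay, 0 were higher and 1 was lower, with a median of 0.932, from Casc3 (1.46) and the kinase Smg1 (1.41) to Upf3b (0.542) and Magoh (0.440). Casc3 and Magoh are core proteins of the exon junction complex, to which Upf3b binds. The balance differed in the other data sets. In the 10% library 1 of 13 was higher (Smg1, 2.01) and 0 lower, with a median of 1.04, beside 16.4% and 32.3% of all genes. In the long reads 2 of 14 were higher (Smg1, 2.64, and Casc3, 2.63) and 0 lower, with a median of 1.08, beside 19.9% and 29.4%. Of 10 other long noncoding RNAs, 8 were tested, with 5 higher, 2 lower and a median of 2.99. Meg3 (116-fold) and the nuclear RNA Malat1 (10.9-fold) were highest, and H19 (0.286) and Xist (0.167) were lowest. In the short reads of both libraries the hosts' folds lay between those of Xist and Meg3. Snhg3 was near the lower end, at 0.221 in the 90% library, below H19. In the long reads Snhg3 (0.227) fell below Xist (0.266), the lowest of the other long noncoding RNAs there.

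Across the 606 deep barcodes of the 90% library, the gene outside the 9 hosts most like their summed level was 2410006H16Rik, with a Spearman rho of 0.575 (0.703 over the 79 deep barcodes of the 10% library). It is itself a noncoding gene with 3 annotated snoRNAs, Snord49a, Snord49b and Snord65. Atf4, a transcription factor of the integrated stress response, followed with 0.407 (0.355). The third was 1110038B12Rik with 0.403 (0.424), a noncoding gene with 2 annotated snoRNA loci, among them Snord52. Klf4, a zinc finger transcription factor, had 0.347 (0.354) and Nupr1, a stress-induced chromatin protein, 0.339 (0.338). With all deep barcodes of the 90% library these were the 5 highest outside the members, among 4307 genes with a mean of at least 1 UMI per barcode. The values describe cells of 1 capture, which share the library, and libraries that share cells. Without the shared barcodes they were 0.539, 0.367, 0.406, 0.300 and 0.319, and the order changed, with Rpl41 (0.341) and Rps12-ps4 (0.338) above Nupr1 and Klf4. In the 10% library 5430416N02Rik (0.479) and Neat1 (0.381) were among the genes above Atf4, Klf4 and Nupr1. The sum mostly follows the abundant members Zfas1, Gas5 and Snhg1, whose own rho with it was 0.751, 0.742 and 0.670 in the 90% library. Snhg5 (0.485) and Snhg12 (0.470) came next. Snhg15 (0.368), Snhg6 (0.367), Snhg3 (0.3596) and Snhg8 (0.3585) were less like the sum than Atf4 was, although they are part of it. Within the 606 deep barcodes of the 90% library, the summed level of the 9 genes had a rho of -0.0032 with the depth of the barcode. Shallow barcodes are not in this value.

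The long reads show how the host transcripts were spliced. Gas5 had 43 counted isoforms, as many as or more than all but a few genes, since 8 of 12032 genes (0.0665%) had at least 43. Snhg1 had 24, Snhg5 and Snhg15 had 11 each, Zfas1 10, Snhg12 9, Snhg3 and Snhg6 5 each and Snhg8 3. The median of the 9 genes was 10, and the median of all genes was 4, at 1055 and 128 UMIs per gene. Isoform number grows with the number of UMIs, and many of the isoforms were small. With at least 15 UMIs per isoform, Gas5 had 41, Snhg1 13, Snhg6 2 and the median member 5. The leading isoform held a median of 57.7% of a member's UMIs, from 34.4% for Snhg15 and 47.2% for Gas5 to 93.1% for Snhg6, against 55.6% over all genes with at least 2 isoforms. The share of UMIs on isoforms named after a reference transcript ran from 23.1% (Gas5) to 98.7% (Snhg12), beside 43.5% over the whole table. The hosts were under-represented in the long reads. Their share of long-read UMIs over their share of short-read UMIs in the same barcodes was 0.381 (Snhg6) to 0.922 (Snhg5), where the median of 5661 genes was 1.18.

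No member had an isoform whose share differed by 20 points or more between shallow and deep barcodes. There were 0 of 8 members with at least 50 long-read UMIs in each group, where 17.5% of all 3230 genes compared had such a shift. The largest difference of a member's isoform had a median of 8.27 points, against 10.7 points over all genes. Snhg3 had 48 shallow UMIs and was not counted. The largest was in Snhg6, where the isoform ENSMUST00000182580.7, of 4 exons, made up 80.6% (72.6 to 87.2%) of shallow and 96.5% (94.7 to 97.8%) of deep UMIs, a difference of -15.8 points (-23.7 to -9.59). In Snhg15 an isoform over chr11:6524541-6528746 with no reference name made up 23.9% of shallow and 39.3% of deep UMIs, a difference of -15.5 points (-22.0 to -8.30). Its 3′ end lies beyond the end of the annotated gene. The leading isoform of Snhg8, ENSMUST00000196466.1, held 82.9% and 94.2%, a difference of -11.2 points (-16.4 to -6.65).

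In Gas5 the main isoform, over chr1:161035163-161038533 with no reference name, held 807 of 1856 shallow UMIs (43.5%) and 1486 of 2947 deep UMIs (50.4%). The reference isoform ENSMUST00000162558.7, of 12 exons with all 9 snoRNA loci spliced out, held 20.8% of shallow and 12.9% of deep UMIs, a difference of 7.94 points (5.75 to 10.2). Zfas1 differed little in its leading isoform, ENSMUST00000189909.6, at 48.7% and 49.6%. Snhg1 and Snhg12 had leading isoforms at 71.0% and 75.4%, and at 76.9% and 84.9%, in shallow and deep barcodes.

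Structures are known for the 27 isoforms of the 9 genes that carry a reference name, and they show whether a snoRNA was cut out or kept. Most reference-named UMIs lay on isoforms with no snoRNA in an exon. Isoforms without a reference name are left out, and in Gas5 these held most of the UMIs. Of the reference-named UMIs, 112 of 1850 in shallow (6.05%, 5.01 to 7.24%) and 75 of 4333 in deep barcodes (1.73%, 1.36 to 2.16%) lay on isoforms with a snoRNA inside an exon, a difference of 4.32 points (3.24 to 5.55). Part of this pooled difference is the mix of genes, since Snhg12 made up 14.0% of shallow and 6.76% of deep named UMIs, and Gas5 28.4% and 14.1%. With the gene mix of deep barcodes in both groups the difference was 1.96 points (3.70% against 1.73%), and with that of shallow barcodes 2.83 points. Among the reference-named isoforms, those of 3 members kept a snoRNA. In Snhg12 they held 55 of 259 shallow (21.2%, 16.4 to 26.7%) and 31 of 293 deep UMIs (10.6%, 7.30 to 14.7%). In Snhg1 they held 23 of 286 (8.04%, 5.17 to 11.8%) and 12 of 726 (1.65%, 0.857 to 2.87%). In Gas5 they held 34 of 526 (6.46%) and 32 of 611 (5.24%), and the interval of that difference, -1.51 to 4.09 points, included 0. None of the reference-named isoforms of the 6 other members holds a snoRNA in an exon, so their 0 is fixed by structure and measures nothing.

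**Figure D5:**
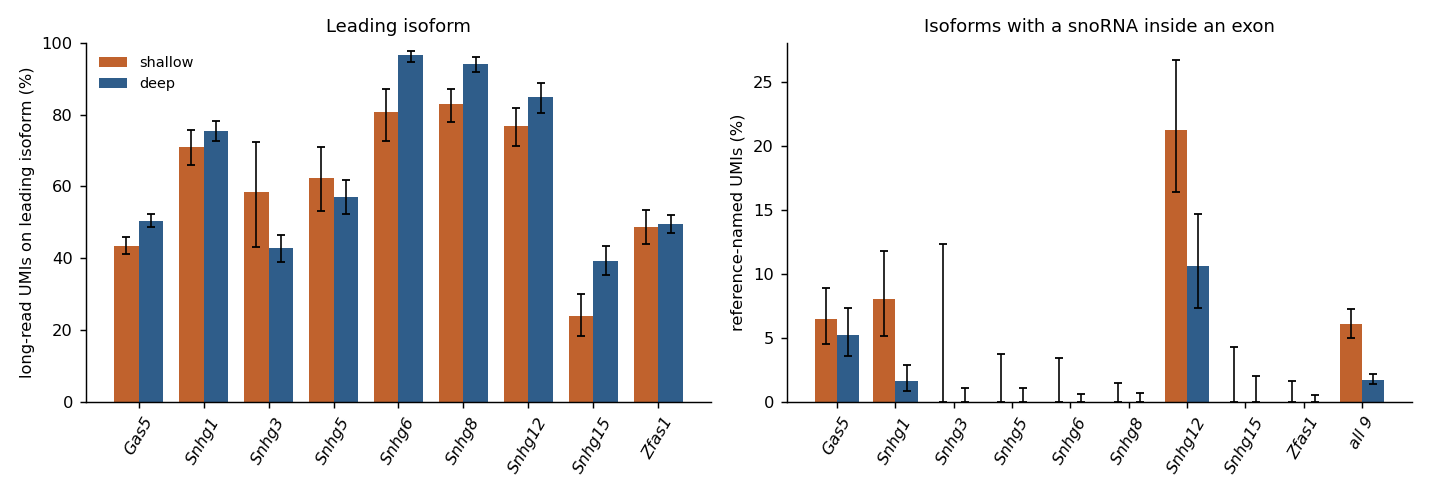
Left, share of long-read UMIs on the leading isoform of each host gene in shallow and deep barcodes of the 10% library. Right, share of reference-named UMIs on isoforms that contain a snoRNA inside an exon, for each gene and all 9 together. Bars are shares and lines exact 95% intervals. The right panel has bars above 0 for Gas5, Snhg1, Snhg12 and the sum, each higher in shallow barcodes, and the sum also reflects a different mix of genes in the groups. The sum also counts UMIs of the other members, whose named isoforms hold no snoRNA in an exon.

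In Snhg12 the snoRNAs kept in exons were Snora44 (25 shallow and 3 deep UMIs), Snora61 (52 and 28) and Snord99 (43 and 9), while Snora16a was in none of the named isoforms. The isoform ENSMUST00000137343.8, of 2 exons, keeps 3 snoRNAs and made up 9.62% of shallow and 1.00% of deep Snhg12 UMIs. The retained-intron isoform of Snhg1, ENSMUST00000206519.1, keeps 7 of the 8 loci and made up 6.23% and 1.27%. The sequences of Snora61 and Snord99, from Gencode vM21 (mm10), are shown because they are the snoRNAs that most of these Snhg12 molecules still held. Capitals mark the C box (TGATGA) and the D box (CTGA) of Snord99 and the ACA box of Snora61.
Snora61: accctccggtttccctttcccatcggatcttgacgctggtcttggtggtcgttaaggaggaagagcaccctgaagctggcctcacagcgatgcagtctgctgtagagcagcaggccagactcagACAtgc (chr4:132310240-132310369, plus strand)
Snord99: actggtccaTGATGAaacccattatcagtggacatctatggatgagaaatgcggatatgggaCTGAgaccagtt (chr4:132310691-132310764, plus strand)

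A higher share of retained introns in shallow barcodes was common. Over 135 genes with a reference-named isoform that keeps an intron of the leading one, the share on such isoforms was higher in shallow barcodes in 77.8%. Of the members 5 were in this comparison and 4 were higher, Snhg12 (21.2 against 10.6%), Snhg1 (8.04 against 1.65%), Snhg6 (5.66 against 0.660%) and Snhg8 (4.90 against 0.992%). The values of Snhg6 rest on few UMIs, 6 of 106 in shallow and 4 of 606 in deep barcodes. Those of Snhg8 rest on 12 of 245 and 5 of 504, and both are given without intervals. Gas5 was lower, at 12.9 against 15.7%. The members' proportion was thus near that of the other genes. In the deposited isoform annotation, which gives supporting reads rather than UMIs and no cell groups, 3060 of 22340 reads of the 9 genes (13.7%) supported isoforms with a snoRNA in an exon. These reads include isoforms without a reference name, which the shares of reference-named UMIs leave out. The proportion was 21.4% for Snhg1, 18.7% for Gas5, 17.0% for Snhg12, 16.8% for Snhg8, 15.2% for Snhg15, 3.96% for Zfas1 and slightly less for Snhg5, with 43 of 1131 reads, and 0 for Snhg3 and Snhg6.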

How the data were processed

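Single MuSCs were profiled with the 10x v2 3′ protocol, by Illumina in both libraries and by nanopore in the 10% library. The deposited counts are UMIs, which the authors obtained per gene from short reads with scPipe and per isoform from long reads with FLAMES, which assigns barcodes, aligns with minimap2 (2.17 per the labels, which also name Cell Ranger 1.3) to mm10, merges isoforms with reference transcripts and drops those with few full-length reads. The counts are not normalized. The deposited isoform annotation gives exon coordinates (other, not a measurement of level) and supporting reads. The members, lists and limits were chosen with earlier results of these data known.

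UMIs were summed per group and divided by the group's total (CPM). Genes with at least 20 UMIs over both groups were tested for a fold of 2, and isoform shares of genes with at least 50 long-read UMIs in each group for 20 points. Levels have exact Poisson, shares Clopper-Pearson, folds conditional binomial and share differences Newcombe 95% intervals, for counting error only. The genes named are the 9 members, the highest and lowest 2 of each list in the 90% library, and the 5 most correlated genes. The comparisons of retained introns and of pyrimidine runs were added after seeing the data.

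The gene IDs of the isoform table all carry the versions of Gencode vM21, but 266 of 11719 genes, 3 of them members, have another version in the annotation. Structures were therefore used only for isoforms with a reference name, all 7754 of which are in vM21. Functions were tested on simulated data, where 195 of 200 changed genes were recovered among 9876 for the 90% library. Doublets were called with Scrublet in scanpy 1.11.5, which marked 8 of 330 and 3 of 2420 barcodes, too few in the 90% library to rely on. They were kept in the main values. Python 3.11.15, scipy 1.17.1, R 4.3.3 and edgeR 4.0.16 (for TMM factors) were used.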

Additional observations from a re-analysis of the deposited data

How the results depend on the processing

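No paired analysis was possible because there is 1 capture with no replicates. Of 92 alternative counts of members past 2-fold, 85 stayed within 1.5 times, a limit that a change from 2 to 3 members passes. Alternatives that change only the UMI minimum could not alter these counts, since every member passed each minimum. They are counted in both the 85 and the 92. Against deep barcodes with 0 UMIs of the cycle genes, the 10% library had 1 member higher and 0 lower, beside 20.3% and 18.7% of all genes, and the long reads had 1 higher, beside 24.6%. With long reads thinned to 3000 UMIs, 1 member was higher (Snhg8), beside 23.9% of all genes, with Gas5 at 1.99-fold and Snhg12 down to 1.58-fold from 2.91-fold. Thinned folds come from a single random draw and have no intervals. Thinned short reads of the 10% library had 2 higher, Snhg8 and Snhg12, beside 21.3%, with Gas5 just under the limit. At a limit of 1.5-fold 4 were higher in the 10% library and 5 in the 90% library, beside 24.2% and 27.3% of all genes, and 2 were lower in the long reads, beside 40.3%. No fold of a member past 2-fold changed direction in any of these alternatives, and 373 of 414 member folds stayed within their counting intervals. Alternatives that change only the UMI minimum or the 2-fold limit leave each member's fold as it was. They are counted in both the 373 and the 414. The fold of the summed members, 1.55, 1.72 and 1.46 in the 10% library, the 90% library and the long reads, moved to 1.33 and 1.82 with deep barcodes of 0 cycle UMIs in the 10% and 90% libraries. It moved to 1.61 and 1.79 without mitochondrial and ribosomal protein genes in the denominator, to 1.67 and 1.58 with TMM factors in the 90% library and the long reads, and in the 90% library to 1.68 with shallow barcodes from 1000 UMIs, 1.68 without the cycle condition and 1.76 without shared barcodes. In the long reads it was 1.53 without shallow barcodes that held an immune or fibro-adipogenic marker, an alternative chosen after seeing the data, as was that on shared barcodes. TMM shifted the median log2 fold of all genes in the long reads from -0.26 to -0.14. The cause of these moves was not tested. At 10 points 3 of 8 members had an isoform shift (Snhg6, Snhg8 and Snhg15), beside 54.1% of all genes. The median isoform number of 10 became 5 with at least 15 UMIs per isoform and 2 with reference-named isoforms alone, since fewer isoforms are counted. The median leading share of 57.7% became 62.3% in shallow barcodes, 62.8% with at least 15 UMIs and 96.0% with reference-named isoforms. The difference of 4.32 points in UMIs with a snoRNA stayed between 4.18 and 5.09 with other group limits or without doublets. It fell to 1.96 and 2.83 with the gene mix of deep or of shallow barcodes in both groups, an alternative chosen after seeing the data. That alternative holds only the weights of the genes equal, and the groups still differ in depth. The weights include the members whose named isoforms hold no snoRNA in an exon. Depth limits Snhg3 most, with 38 shallow UMIs in the 10% library, and the 9 deep barcodes there with 0 cycle UMIs.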
